A study of Rattus norvegicus with 12 samples.

Results

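Interleukins, tumour necrosis factor (TNF), leukaemia inhibitory factor (LIF) and oncostatin M (OSM) were followed with their receptors in the long bone of ovariectomized rats. The genes were taken by symbol: every gene whose rat symbol starts with Il and a digit, together with Tnf, Tnfrsf1a, Tnfrsf1b, Lif, Lifr, Osm and Osmr. Of 14217 genes measured 57 were of this kind, 26 of them ligands, 25 receptor chains and 6 inhibitors, measured by 72 probe sets. Osmr, Il17a and Il13ra1 were not analysed here, because no probe set carries the symbol of one of them alone.

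The rats were female Sprague-Dawley rats in 4 groups. Sham-operated (sham) and ovariectomized (OVX) rats had the casein control diet throughout. Long-term blueberry (LTBB OVX) rats had a diet with 10% blueberry (BB) from postnatal day (PND) 20 to PND 81, and short-term blueberry (STBB OVX) rats had it from PND 20 to PND 34 and the control diet afterwards. Both BB groups were ovariectomized, so no intact group had BB. Surgery was on PND 60 and bone was taken on PND 81. Every array held a pool of RNA from 2 to 3 rats, with 3 pools per group, and the sample labels give femur as the tissue where the methods give the right tibia. All p-values thus refer to variation among pools, and with 3 pools on each side the smallest p of an exact permutation test is 0.1.

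Each value is a log2 value that the authors centred per probe set: the median over the 12 arrays is 0. Differences between arrays are kept, whereas the level of a gene is lost, so nothing can be said of which cytokine was abundant or whether it was detected. A gene is called changed where its adjusted p in limma is under 0.05, with adjustment over all 14217 genes. Log2 fold changes are given with their standard error (SE).

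The sham arrays stood apart from the other 9 in the mRNA of cell type markers. Of 100 cell type marker genes 83 were measured, and 70 of these (84.3%, beside 58.9% of all genes) changed between OVX and sham, 36 upwards and 34 downwards. With the arrays quantile normalized again 43 were called. The mean of 10 skeletal muscle markers lay between 3.5 and 4.32 in sham and between -2.72 and -1.23 in OVX, while that of 8 cartilage markers lay between -4.86 and -4.70 in sham and between -0.050 and 0.22 in OVX. All 7 osteoblast markers measured were higher in OVX, with a median log2 fold change of 2.67, and so were 5 of 6 osteoclast markers. All 6 erythroid markers were lower, with a median of -2.91. As these are bulk samples, fewer cells of a type and less RNA per cell cannot be told apart, and their part in the results below was not tested.

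As background, cytokines act on a cell through receptors built of several chains. IL-1 family receptors and TNF receptors pass their signal to nuclear factor-kappa B (NF-kB) through adaptor proteins, while most interleukin receptors use Janus kinases (JAK) and STAT factors. IL-6, IL-11, LIF, OSM and IL-27 share the chain gp130, and IL-2, IL-4, IL-7, IL-9 and IL-15 share the common gamma chain. In bone, IL-1, TNF, IL-6 and IL-17 are known to favour the formation of osteoclasts, the cells that resorb bone, and the loss of estrogen is widely studied through them. Some receptors are decoys that bind a ligand without passing on a signal.

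Sequence upstream of these genes is shown for the TNF receptors Tnfrsf1a and Tnfrsf1b and for the IL-10 receptor chains Il10rb and Il10ra. In both pairs the genes moved in opposite directions. A further sequence is that of Il6, whose mRNA did not pass the test. Each is the 250 bases before the transcription start furthest upstream in RefSeq on the rat build GRCr8, 5′ to 3′ on the strand of the gene, with matches to a motif in capitals. The motifs, searched on both strands, were GGG, any 5 bases and CC for NF-kB, TGANTCA for AP-1, and TTC, any 3 bases and GAA for STAT, which had no match in these 5 windows. Positions are those of the first base of the match, with -1 for the base before the start.
Tnfrsf1a, chr4:159836869-159837118, plus strand: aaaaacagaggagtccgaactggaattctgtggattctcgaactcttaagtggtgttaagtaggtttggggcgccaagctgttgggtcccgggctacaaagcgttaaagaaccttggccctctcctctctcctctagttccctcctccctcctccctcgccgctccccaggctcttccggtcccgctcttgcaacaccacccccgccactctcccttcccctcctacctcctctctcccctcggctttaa
Tnfrsf1b, chr5:162387412-162387661, minus strand: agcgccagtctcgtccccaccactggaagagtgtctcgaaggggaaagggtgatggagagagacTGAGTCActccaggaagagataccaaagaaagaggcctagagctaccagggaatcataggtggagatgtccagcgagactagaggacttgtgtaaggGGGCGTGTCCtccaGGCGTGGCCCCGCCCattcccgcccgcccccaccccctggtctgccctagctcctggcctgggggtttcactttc
Il10rb, chr11:44132386-44132635, plus strand: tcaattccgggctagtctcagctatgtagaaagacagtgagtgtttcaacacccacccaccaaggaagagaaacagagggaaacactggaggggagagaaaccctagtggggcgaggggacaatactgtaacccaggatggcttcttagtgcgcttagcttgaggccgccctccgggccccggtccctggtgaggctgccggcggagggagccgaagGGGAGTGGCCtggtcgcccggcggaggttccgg
Il10ra, chr8:54474787-54475036, minus strand: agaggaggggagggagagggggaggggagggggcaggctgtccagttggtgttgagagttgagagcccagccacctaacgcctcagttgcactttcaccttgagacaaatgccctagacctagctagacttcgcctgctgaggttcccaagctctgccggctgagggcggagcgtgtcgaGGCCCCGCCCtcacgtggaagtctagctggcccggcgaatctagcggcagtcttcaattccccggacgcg
Il6, chr4:5894576-5894825, minus strand: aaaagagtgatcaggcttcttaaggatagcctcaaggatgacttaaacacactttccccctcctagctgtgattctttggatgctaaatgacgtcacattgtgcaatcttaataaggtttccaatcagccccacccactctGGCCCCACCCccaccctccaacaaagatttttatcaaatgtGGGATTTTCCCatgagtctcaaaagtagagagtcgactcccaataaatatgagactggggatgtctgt

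Tnfrsf1a had no match, whereas Tnfrsf1b had NF-kB matches at -89, -75 and -70, the last 2 of which overlap, and an AP-1 match at -186. Il10rb had 1 NF-kB match at -33 and Il10ra 1 at -70. Il6 had NF-kB matches at -109, -68 and -67, of which the last 2 overlap and lie in the run GGGATTTTCCC. RefSeq's table held promoters for 42 of the 57 genes, 44 in all with 250 bases before and 50 after the start, and 27 of these 44 (61.4%) held an NF-kB match against 47.3% of all 33469 promoters. AP-1 was matched in 6 (13.6%) against 7.33% of all promoters, and STAT in 3 (6.82%) against 8.87%. These are descriptions of letters only.

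Ovariectomy was followed by changes in both directions. Between OVX and sham 16 of the 57 genes were higher, 18 were lower and 23 did not pass the test. The called share was 59.6%, beside 58.9% of all genes, 28.1% upwards beside 30.3% and 31.6% downwards beside 28.6%. The share is thus near the background and is no result about the cytokine genes as a group. The same holds for changes of at least log2 1, which 4 genes (7.02%) passed upwards and 4 (7.02%) downwards, beside 8.25% and 8.38% of all genes. In 34 genes (59.6%) the 3 sham pools and the 3 OVX pools did not overlap, beside 61.2% of all genes. The median log2 fold change was -0.049, beside 0.0047 over all genes, and the median size regardless of sign was 0.41, beside 0.31. When the arrays were quantile normalized again, which gives all arrays the same distribution of values, 10 genes were higher and 7 lower, and Il1a, Il1b, Il1r1, Il1rn, Il18, Il11ra1, Il27ra, Tnfrsf1b, Il17rc, Il2rb, Il4r, Il10ra, Il20rb, Il22ra2, Il12a and Il12b kept their direction but no longer passed. Il3ra changed sign and did not pass in that setting.

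By role, 5 of 26 ligands rose and 6 fell, so 15 did not pass (42.3% called, beside 58.9% of all genes). Of 25 receptor chains 9 rose, 9 fell and 7 did not pass (72% called). Of the 6 inhibitors 2 rose, 3 fell and 1 did not pass (83.3% called). Over all genes 30.3% were higher and 28.6% lower. Differences of these shares between roles, or between the families below, were not tested.

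**Figure D1:**
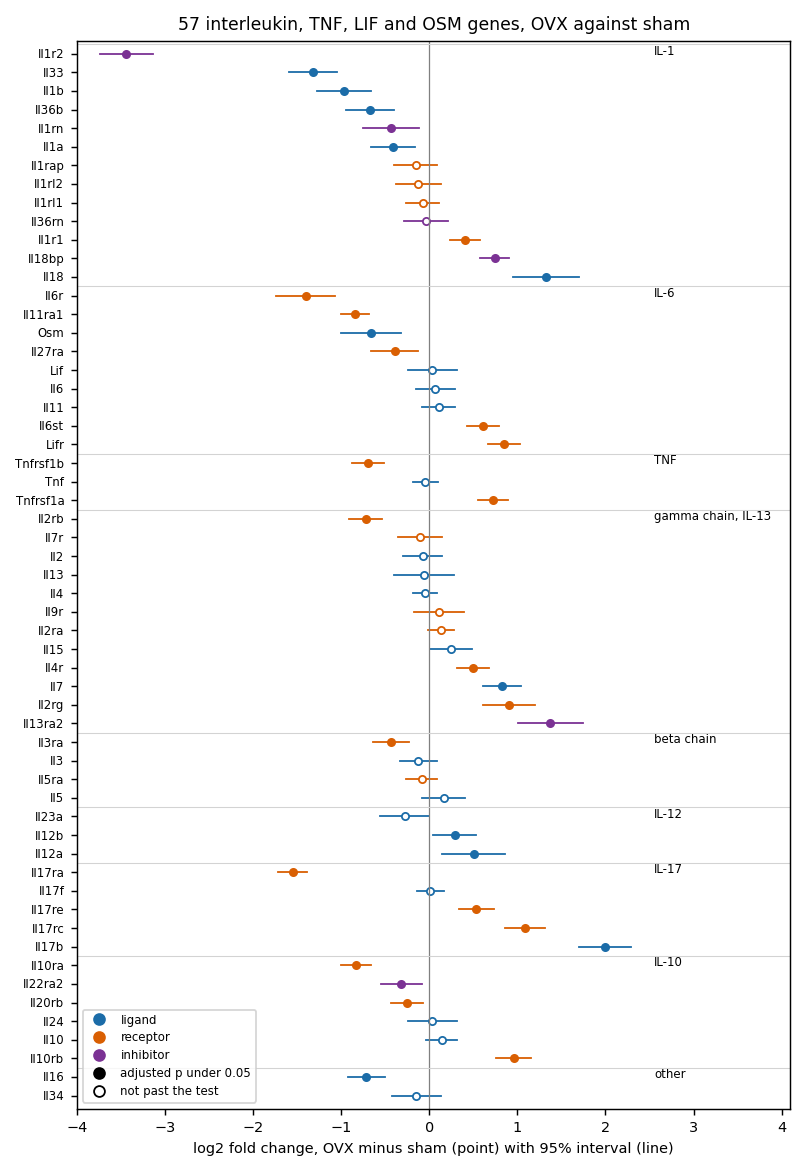
Log2 fold change of the 57 genes between OVX and sham (point) with its 95% interval (line), 3 pools per group, grouped by family and coloured by role. Filled points passed at an adjusted p under 0.05. Il1r2, at -3.44, lies furthest to the left and Il17b, at 2.0, furthest to the right.

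In the IL-1 family 3 of 13 genes rose and 6 fell (69.2% called, beside 58.9% of all genes). The decoy receptor Il1r2, which binds IL-1 without signalling, had the largest change of all 57 genes in size. It measured 3.48, 3.35 and 2.98 in the sham pools and -0.054, -0.32 and -0.14 in the OVX pools. The LTBB OVX pools gave 0.054, 0.063 and -0.16 and the STBB OVX pools -0.35, 0.11 and -0.11. Every sham pool thus lay far above all 9 other pools, and the fall was 10.9-fold (log2 fold change -3.44, SE 0.14, adjusted p = 4.16e-10).

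Il1b, the IL-1 beta ligand, also fell. Its sham pools measured 1.19, 0.81 and 0.81 and its OVX pools -0.19, 0.12 and -0.036. With LTBB the pools measured -0.15, -0.30 and 0.036 and with STBB -0.38, -0.19 and 0.11. No sham pool overlapped with a pool of OVX rats, and the log2 fold change was -0.97 (SE 0.14, adjusted p = 5.23e-05).

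Il1a, the IL-1 alpha ligand, had a smaller fall, from 0.19, 0.56 and 0.48 in sham to 0.20, -0.18 and -0.032 in OVX, with 1 OVX pool above the lowest sham pool. The other pools of OVX rats gave -0.081, 0.017 and -0.065 (LTBB) and 0.039, 0.12 and -0.15 (STBB). The log2 fold change was -0.41 (SE 0.11, adjusted p = 0.00672). Its probe sets were unequal, with -0.74 in one and -0.086 in the other.

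The receptor antagonist Il1rn, which occupies the IL-1 receptor without activating it, measured 0.44, 0.55 and 0.36 in sham and 0.26, -0.027 and -0.20 in OVX. LTBB OVX pools were at -0.37, 0.0015 and -0.18 and STBB OVX pools at -0.37, -0.0015 and 0.16. The sham pools lay above all the others, although OVX pool 1 lay close to them, and the log2 fold change of -0.44 (SE 0.15) passed narrowly (adjusted p = 0.0201). Without sham pool 2 the adjusted p was 0.0684, without OVX pool 2 it was 0.0544 and without OVX pool 3 it was 0.0944.

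Il1r1, the receptor chain that carries the IL-1 signal, rose. It measured -0.47, -0.42 and -0.26 in sham against 0.12, -0.038 and -0.015 in OVX, -0.020, -0.031 and 0.0065 in LTBB OVX and -0.045, 0.053 and 0.15 in STBB OVX, with no overlap (log2 fold change 0.41, SE 0.077, adjusted p = 0.000492). The rise rests on 1 of 3 probe sets, with 1.10 there and 0.00074 and 0.12 in the other two. Its partner Il1rap, the accessory chain, did not pass: sham pools were at 0.15, 0.037 and 0.070, OVX pools at -0.026, 0.081 and -0.27, LTBB OVX pools at 0.059, 0.035 and -0.062 and STBB OVX pools at -0.27, 0.071 and 0.14 (log2 fold change -0.16, adjusted p = 0.251).

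Il18, a further IL-1 family ligand, and Il18bp, the soluble protein that binds and blocks it, rose together. Il18 measured -0.80, -1.18 and -1.45 in sham and 0.013, 0.20 and 0.33 in OVX, and 0.31, -0.013 and 0.34 and 0.29, -0.074 and -0.25 in LTBB OVX and STBB OVX. The sham pools were all below the others, and the rise was 2.51-fold (log2 fold change 1.32, SE 0.17, adjusted p = 1.82e-05). Il18bp measured -0.67, -0.65 and -0.48 in sham, 0.22, 0.091 and 0.12 in OVX, 0.084, -0.0033 and 0.0033 in LTBB OVX and 0.0045, -0.21 and -0.090 in STBB OVX, also with no overlap between sham and the rest (log2 fold change 0.75, SE 0.076, adjusted p = 1.96e-06).

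Il33, the alarmin that binds the receptor chain ST2, fell 2.50-fold. It measured 1.60, 1.17 and 1.03 in sham, -0.23, 0.056 and 0.014 in OVX, -0.16, -0.24 and -0.23 in LTBB OVX and 0.053, -0.075 and 0.10 in STBB OVX, so the sham pools stood above all others (log2 fold change -1.32, SE 0.13, adjusted p = 9.85e-07). Both probe sets fell, by 1.70 and 0.94 on the log2 scale. Il1rl1, which encodes ST2, overlapped between sham and each other group, at 0.080, -0.10 and 0.23 in sham, 0.069, -0.050 and -0.034 in OVX, -0.058, -0.15 and -0.025 in LTBB OVX and -0.073, 0.0018 and 0.075 in STBB OVX (log2 fold change -0.074, adjusted p = 0.486). Of the IL-36 genes the ligand Il36b fell (log2 fold change -0.67, adjusted p = 0.000467), while the receptor Il1rl2 (-0.12) and the antagonist Il36rn (-0.040) did not pass.

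Markers of neutrophils, which are known for high Il1r2 and Il1b, moved the same way. All 5 measured of 10 listed markers (S100a8, S100a9, Camp, Mmp8 and Csf3r) fell, with a median log2 fold change of -2.72, and their mean lay between 2.45 and 2.87 in sham, -0.32 and 0.0060 in OVX, -0.38 and 0.13 in LTBB OVX, and -0.18 and 0.010 in STBB OVX. Of 9 macrophage markers measured of 10 listed, 5 rose, among them Csf1r at 2.82 and Cd68 at 2.69, 1 fell, Cd163 at -2.40, and 3 did not pass. Their mean ranged from -1.01 to -0.27 in sham and from -0.0044 to 0.10 in OVX. Whether any marker was near 0 in level cannot be read from centred values, and the part of these cells in the IL-1 results was not tested.

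**Figure D2:**
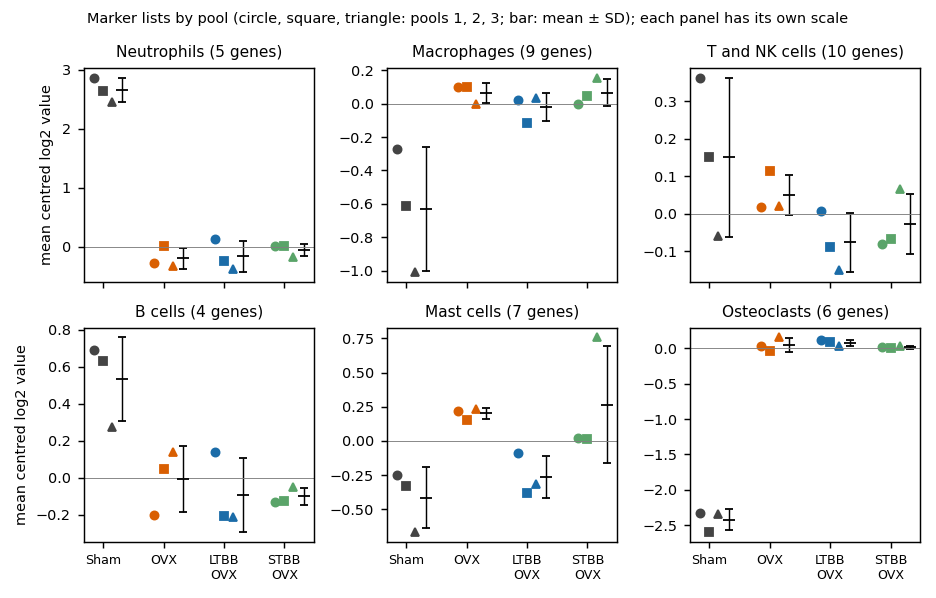
Mean centred log2 value (vertical axis) of 6 cell type marker lists in each of the 3 pools per group, with the mean ± SD (bar) of the group. Between sham and OVX, neutrophil and B cell markers are higher in sham and macrophage, mast cell and osteoclast markers lower, whereas T and NK cell markers overlap. The mast cell means of LTBB OVX, from -0.38 to -0.091, overlap with those of sham, from -0.67 to -0.25. Each panel has its own scale.

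In the IL-6 family 2 of 9 genes rose and 4 fell (66.7% called, beside 58.9% of all genes), and the ligand Il6 itself did not pass. Il6 measured -0.33, -0.10 and 0 in sham and -0.089, 0.020 and -0.16 in OVX, with 0.064, 0.084 and 0.076 in LTBB OVX and -0.28, 0 and 0.080 in STBB OVX. The sham and OVX pools overlapped, whereas the 3 LTBB OVX pools lay above all sham and OVX pools, and the 95% interval of the OVX minus sham difference ran from -0.15 to 0.29 (log2 fold change 0.069, adjusted p = 0.598).

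The specific receptor chain Il6r fell 2.64-fold. Sham pools were at 1.68, 1.21 and 0.99 and OVX pools at -0.28, -0.037 and -0.0032. LTBB OVX pools were at 0.036, -0.28 and -0.21 and STBB OVX pools at 0.0032, -0.19 and 0.12. All 3 sham pools lay above the other 9 (log2 fold change -1.40, SE 0.15, adjusted p = 3.98e-06).

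Il6st, the gene of gp130, moved the other way. It measured -0.42, -0.75 and -0.49 in sham, 0.089, 0.062 and 0.022 in OVX, -0.021, 0.062 and -0.044 in LTBB OVX and 0.019, -0.041 and 0.065 in STBB OVX, with all sham pools below the rest (log2 fold change 0.61, SE 0.082, adjusted p = 2.73e-05). Of its 4 probe sets 3 rose, by 0.77, 0.75 and 0.80, and 1 did not pass, at 0.11.

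Lifr, the LIF receptor chain that joins gp130, rose with it. Its values were -0.89, -0.89 and -0.62 in sham, 0.038, 0.14 and -0.040 in OVX, -0.081, 0.029 and 0.013 in LTBB OVX and 0.15, 0.14 and 0.067 in STBB OVX (log2 fold change 0.85, SE 0.083, adjusted p = 1.29e-06). No sham pool overlapped with the others. Both probe sets rose, by 0.26 and 1.43.

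The IL-11 receptor chain Il11ra1 fell, from 0.85, 0.76 and 0.93 in sham to 0.015, -0.017 and 0.015 in OVX, -0.25, -0.036 and -0.15 in LTBB OVX and -0.018, -0.015 and 0.10 in STBB OVX (log2 fold change -0.84, SE 0.073, adjusted p = 4.02e-07). Again the sham pools were all above the rest. Il27ra, the IL-27 receptor chain, fell too, at a log2 fold change of -0.39 (adjusted p = 0.0151), but not without sham pool 2 (-0.26, adjusted p = 0.0714).

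Of the ligands that use gp130, Osm fell and Il11 and Lif did not pass. Osm measured 0.72, 0.13 and 1.0 in sham, a wide spread, and -0.036, -0.062 and -0.026 in OVX, 0.029, 0.039 and -0.020 in LTBB OVX and -0.033, 0.020 and -0.12 in STBB OVX (log2 fold change -0.66, SE 0.16, adjusted p = 0.00279). Sham pool 2 was the nearest to the pools of OVX rats, yet above all 9. Il11 measured 0.058, -0.19 and -0.16 in sham, -0.017, -0.0087 and 0.045 in OVX, -0.018, 0.0087 and 0.092 in LTBB OVX and -0.023, 0.27 and 0.035 in STBB OVX (log2 fold change 0.11, adjusted p = 0.33). Lif measured -0.31, 0.093 and 0.13 in sham, 0.17, -0.028 and -0.12 in OVX, -0.046, 0.12 and -0.23 in LTBB OVX and -0.10, 0.028 and 0.13 in STBB OVX (log2 fold change 0.035, adjusted p = 0.84). For Lif and Il11 the sham pools overlapped with those of each other group.

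TNF is the main inflammatory ligand of its family and has a widely expressed receptor, Tnfrsf1a, and a receptor known mainly from blood and endothelial cells, Tnfrsf1b. Tnf did not pass, while its receptors went in opposite directions. Tnf measured 0.14, 0.041 and 0.011 in sham, 0.018, 0.055 and -0.021 in OVX, -0.041, 0.016 and 0.043 in LTBB OVX and -0.046, -0.011 and -0.16 in STBB OVX. The sham and OVX pools overlapped, whereas the 3 STBB OVX pools lay below all sham pools, and the 95% interval of the OVX minus sham difference was -0.19 to 0.096 (log2 fold change -0.045, adjusted p = 0.581).

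Tnfrsf1a rose, from -0.52, -0.69 and -0.78 in sham to 0.16, -0.0098 and 0.026 in OVX, with 0.018, -0.013 and 0.12 in LTBB OVX and 0.0098, 0.034 and -0.072 in STBB OVX (log2 fold change 0.72, SE 0.079, adjusted p = 3.91e-06). Tnfrsf1b fell, from 0.71, 0.69 and 0.76 in sham to 0.013, 0.21 and -0.16 in OVX, with 0.018, -0.12 and -0.068 in LTBB OVX and -0.080, -0.031 and -0.013 in STBB OVX (log2 fold change -0.70, SE 0.085, adjusted p = 1.06e-05). For both receptors the sham pools lay apart from all 9 pools of OVX rats. Their upstream windows, printed above, differ in that only that of Tnfrsf1b holds matches to the motifs searched.

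**Figure D3:**
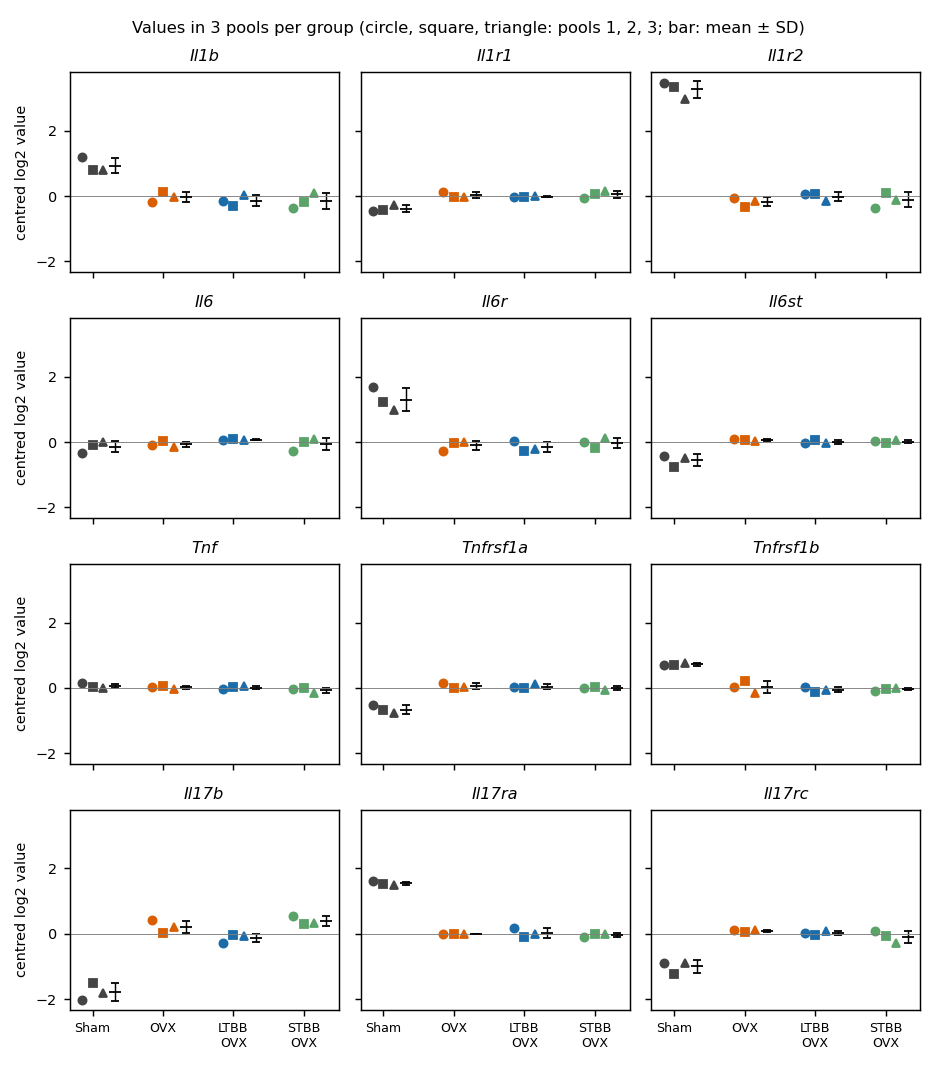
Centred log2 value (vertical axis, the same scale in all panels) of 12 genes of the IL-1, IL-6, TNF and IL-17 systems in each of the 3 pools per group, with the mean ± SD (bar). Each row holds a ligand and receptor genes of 1 family, which need not bind each other. For Il6 and Tnf the sham and OVX pools overlap, and for the other 10 genes the sham pools lie apart from all other pools.

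In the IL-17 family 3 of 5 genes rose, 1 fell and 1 did not pass (80% called, beside 58.9% of all genes). Il17b, a ligand of the family, had the largest rise of the 57 genes, 3.99-fold. Its sham pools measured -2.03, -1.51 and -1.81 and its OVX pools 0.41, 0.025 and 0.21, and the pools of LTBB OVX and STBB OVX gave -0.28, -0.025 and -0.081 and 0.55, 0.29 and 0.33. All sham pools were over 1 log2 unit below the rest (log2 fold change 2.0, SE 0.14, adjusted p = 4.06e-08). The ligand Il17f did not pass (log2 fold change 0.012, adjusted p = 0.899).

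Il17ra, the chain shared by the receptors of the family, fell 2.93-fold. It measured 1.61, 1.53 and 1.49 in sham, -0.0027, -0.017 and -0.0078 in OVX, 0.18, -0.095 and -0.011 in LTBB OVX and -0.099, 0.0049 and 0.0027 in STBB OVX (log2 fold change -1.55, SE 0.075, adjusted p = 1.85e-09). Il17rc, which joins it in the receptor for IL-17A and IL-17F, rose, from -0.88, -1.22 and -0.89 in sham to 0.11, 0.055 and 0.12 in OVX, 0.023, -0.023 and 0.091 in LTBB OVX and 0.078, -0.053 and -0.29 in STBB OVX (log2 fold change 1.09, SE 0.10, adjusted p = 1.09e-06). The sham pools of both genes were apart from the other 9. Il17re, the partner chain for IL-17C, rose as well (log2 fold change 0.53, adjusted p = 0.000216), in both of its probe sets.

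Among 12 genes of the common gamma chain and IL-13 group, 4 rose, 1 fell and 7 did not pass. That is 41.7% called, beside 58.9% of all genes. Il2rg, the common gamma chain, measured -0.62, -0.51 and -1.11 in sham, 0.16, 0.099 and 0.20 in OVX, 0.11, 0.13 and -0.21 in LTBB OVX and -0.020, 0.020 and -0.077 in STBB OVX, with every sham pool below the rest (log2 fold change 0.90, SE 0.14, adjusted p = 6.76e-05). Il2rb, the chain that joins it in receptors for IL-2 and IL-15, fell. It measured 0.68, 0.86 and 0.65 in sham, -0.019, 0.14 and -0.096 in OVX, 0.019, -0.11 and -0.11 in LTBB OVX and 0.050, -0.15 and -0.060 in STBB OVX, all sham pools being above the rest (log2 fold change -0.72, SE 0.086, adjusted p = 8.25e-06).

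Il7, a growth factor for lymphocyte precursors that marrow stroma is known to make, rose. It measured -0.49, -0.84 and -0.87 in sham, 0.033, 0.15 and 0.092 in OVX, 0.080, 0.047 and -0.11 in LTBB OVX and 0.14, 0.0015 and 0.15 in STBB OVX, with no overlap (log2 fold change 0.83, SE 0.10, adjusted p = 9.62e-06). Both probe sets rose, by 0.47 and 1.18. Its receptor Il7r did not pass, at 0.33, 0.087 and -0.032 in sham, -0.017, 0.20 and -0.11 in OVX, 0.10, -0.080 and -0.038 in LTBB OVX and -0.034, -0.20 and 0.13 in STBB OVX (log2 fold change -0.10, adjusted p = 0.467).

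Il15, a ligand that sustains natural killer (NK) cells and memory T cells, did not pass. It measured -0.24, -0.49 and 0.016 in sham, 0.098, -0.016 and -0.058 in OVX, -0.017, 0.031 and 0.053 in LTBB OVX and 0.078, -0.17 and 0.044 in STBB OVX, with sham pool 3 inside the range of the OVX pools (log2 fold change 0.25, SE 0.11, adjusted p = 0.0752). Without sham pool 3 the log2 fold change was 0.37 and passed (adjusted p = 0.00479).

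Il4, the ligand that drives type 2 responses, did not pass, at 0.051, 0.10 and 0.035 in sham, 0.070, -0.080 and 0.052 in OVX, -0.077, -0.035 and 0.060 in LTBB OVX and -0.13, -0.10 and -0.056 in STBB OVX (log2 fold change -0.049, adjusted p = 0.553). Its receptor chain Il4r rose, from -0.26, -0.52 and -0.44 in sham to 0.16, 0.015 and 0.096 in OVX, 0.12, -0.095 and -0.015 in LTBB OVX and 0.076, 0.059 and -0.036 in STBB OVX (log2 fold change 0.50, SE 0.083, adjusted p = 0.000171). Il13ra2, a decoy receptor for IL-13, rose 2.59-fold, from -1.0, -1.14 and -1.88 in sham to -0.064, 0.14 and 0.033 in OVX, 0.054, -0.053 and 0.087 in LTBB OVX and -0.033, 0.060 and 0.034 in STBB OVX (log2 fold change 1.38, SE 0.17, adjusted p = 1.09e-05). Il4r and Il13ra2 showed no overlap between sham and the rest, and sham pool 3 was the lowest for Il13ra2. The ligands Il2 (-0.077) and Il13 (-0.059) and the receptor chains Il2ra (0.13) and Il9r (0.11) did not pass.

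Lymphocyte markers stood beside these genes as follows. Of 10 T and NK cell markers measured of 11 listed, 3 rose, 3 fell and 4 did not pass, with a median log2 fold change of -0.15. Their mean lay between -0.060 and 0.36 in sham and between 0.017 and 0.11 in OVX, so these groups overlapped. Of 4 B cell markers measured of 8 listed, 3 fell, and the mean lay between 0.28 and 0.69 in sham and between -0.20 and 0.14 in OVX.

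In the IL-10 family 1 of 6 genes rose, 3 fell and 2 did not pass (66.7% called, beside 58.9% of all genes). Il10, an anti-inflammatory ligand, measured -0.27, 0.0030 and -0.10 in sham, 0.024, -0.028 and 0.055 in OVX, -0.016, -0.011 and 0.10 in LTBB OVX and 0.13, -0.0030 and 0.20 in STBB OVX, with overlap (log2 fold change 0.14, adjusted p = 0.16). Its ligand-binding chain Il10ra fell, from 0.87, 0.81 and 0.76 in sham to -0.082, -0.011 and 0.037 in OVX, -0.023, -0.056 and -0.020 in LTBB OVX and -0.25, 0.056 and 0.0091 in STBB OVX (log2 fold change -0.83, SE 0.080, adjusted p = 1.04e-06). The second chain Il10rb, which the receptors for IL-22 and others share, rose, from -0.85, -0.72 and -1.13 in sham to 0.053, 0.10 and 0.019 in OVX, 0.030, -0.0076 and 0.0076 in LTBB OVX and -0.058, 0.036 and -0.085 in STBB OVX (log2 fold change 0.96, SE 0.091, adjusted p = 1e-06).

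Both chains separated sham from all 9 pools of OVX rats. The fall of Il10ra passed in 1 of its 2 probe sets, with -1.46 against -0.21. The windows upstream of both genes, printed above, hold 1 NF-kB match each. Il22ra2, the soluble IL-22 binding protein (-0.32, adjusted p = 0.0205), and the receptor chain Il20rb (-0.25, adjusted p = 0.0168) had small falls, and the ligand Il24 did not pass (0.032). The fall of Il22ra2 no longer passed without sham pool 3 (adjusted p = 0.085) or OVX pool 2 (adjusted p = 0.0925), and that of Il20rb without sham pool 2 (adjusted p = 0.0652), OVX pool 1 (adjusted p = 0.05) or OVX pool 3 (adjusted p = 0.053).

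In the IL-12 family the subunits Il12a (0.50, adjusted p = 0.0191) and Il12b (0.29, adjusted p = 0.0423) rose and Il23a (-0.28, adjusted p = 0.08) did not pass. Neither call held with every single array left out. Il12a no longer passed without sham pool 3 (0.28, adjusted p = 0.0651) or OVX pool 2 (0.45, adjusted p = 0.0647). Il12b no longer passed without any of 9 of the 12 arrays taken singly, at adjusted p between 0.0531 and 0.203. Its lowest log2 fold change was 0.15, without OVX pool 1. Some of these arrays were BB pools, outside the comparison, and without them the log2 fold change of Il12b stayed at 0.29. The sham and OVX pools of Il12b overlapped. Il23a passed without sham pool 2 (-0.36, adjusted p = 0.0442). Of 4 genes of the common beta chain group, the IL-3 receptor chain Il3ra fell (-0.43, adjusted p = 0.00166) but was at 0.083 with quantile normalization, while Il3 (-0.13), Il5 (0.16, or 0.29 and adjusted p = 0.0303 without OVX pool 2) and the IL-5 receptor chain Il5ra (-0.086) did not pass. Il16, a chemoattractant that binds CD4, fell, from 0.48, 0.88 and 0.60 in sham to -0.029, -0.017 and -0.13 in OVX, 0.038, -0.13 and -0.038 in LTBB OVX and -0.088, 0.017 and 0.067 in STBB OVX (log2 fold change -0.71, SE 0.096, adjusted p = 2.7e-05). All sham pools lay above the rest. Il34, a ligand of the macrophage receptor Csf1r, did not pass, at -0.024, 0.041 and 0.31 in sham, -0.29, -0.00035 and 0.18 in OVX, 0.098, -0.096 and -0.0065 in LTBB OVX and -0.25, 0.097 and 0.00035 in STBB OVX (log2 fold change -0.15, adjusted p = 0.363).

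When genes of 1 receptor system were set against each other within each array, many genes of a pair went in opposite directions. Each gene of a pair is called a chain here for short. Tnfrsf1a and Tnfrsf1b are separate receptors, however, and Il1r1 and Il1r2 are a receptor and its decoy. The 16 pairs were set up with the values known, so they are a description with no test. In 9 pairs one chain rose and the other fell, in 2 pairs, Il6st with Lifr and Il2rg with Il4r, both rose, and in 5 pairs a chain did not pass. The difference between Il1r1 and its decoy Il1r2 lay between -3.95 and -3.24 in sham and between 0.13 and 0.28 in OVX, a shift of 3.85. For Il17rc over Il17ra it lay between -2.74 and -2.38 in sham and between 0.073 and 0.13 in OVX, a shift of 2.64. Il6st over Il6r shifted by 2.01, Il17re over Il17ra by 2.08, Il10rb over Il10ra by 1.79 and Il2rg over Il2rb by 1.62.

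Smaller shifts were those of Il6st over Il11ra1 at 1.45, Tnfrsf1a over Tnfrsf1b at 1.42 and Il6st over Il27ra at 1.0. In all 9 pairs the 3 sham pools did not overlap with the 3 OVX pools, which is largely fixed by the choice of pairs with opposite calls. Il6st and Il17ra recur among these pairs, so the pairs are not independent. When the arrays were quantile normalized again, opposite calls were left in 2 of the 16 pairs, Il6st with Il6r and Il17re with Il17ra, and the same call in 1, Il6st with Lifr, while in 13 pairs a chain did not pass. Such a difference shows that the chains of a pair changed unequally, and since each gene is centred on its own median it does not say which chain was more abundant.

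**Figure D4:**
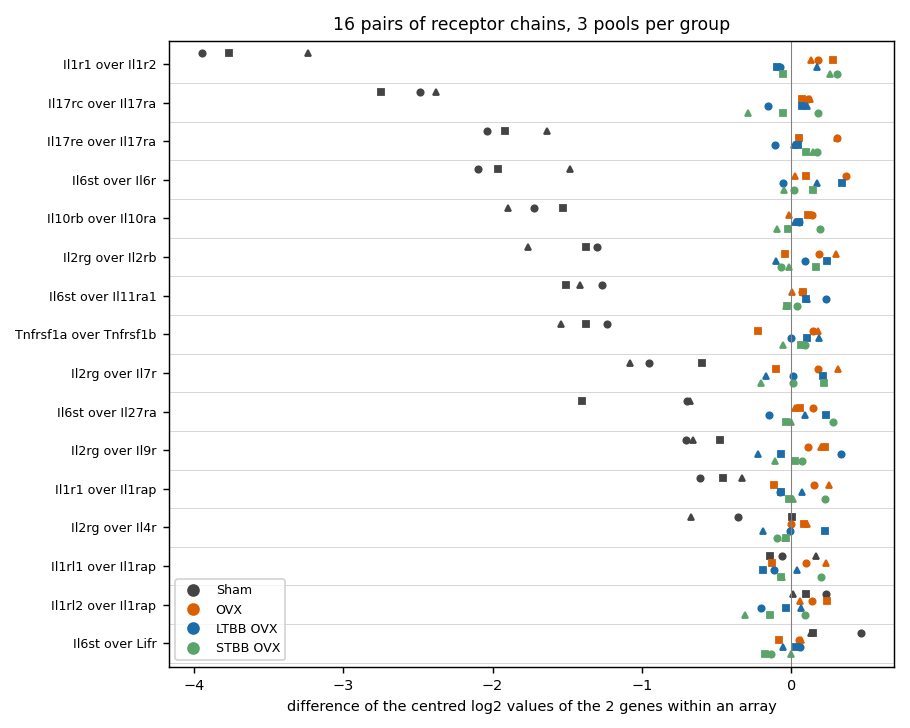
Difference of the centred log2 values of the 2 genes of a pair within an array (horizontal axis) for 16 pairs of receptor genes. Each group has 3 pools (circle, square and triangle for pools 1, 2 and 3). Il1r1 over Il1r2, at the top, shifts most, from between -3.95 and -3.24 in the sham pools to near 0 in the other groups.

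How far a gene's value depends on the probe set could be seen in the 12 genes with several. In 4 of them (Il17re, Il33, Il7 and Lifr) all probe sets passed in the same direction, in 7 some passed and some did not, and in Tnf none passed. No gene had probe sets that passed in both directions. In 10 of the 12 genes the probe sets differed by over 0.5 in log2 fold change. Il1rap, Il1rl1 and Il7r each had 1 probe set that fell, at -0.46, -0.36 and -0.42, and 1 that did not pass, at 0.14, 0.21 and 0.21, and their means did not pass.

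The BB groups differed from sham much as the OVX group did, but the 3 comparisons share the sham arrays and so are not independent. Between LTBB OVX and sham 14 genes were higher and 16 lower (52.6%, beside 58.3% of all genes). Between STBB OVX and sham 16 were higher and 19 lower (61.4%, beside 58.3% of all genes). With quantile normalization these were 3 and 6 for LTBB OVX, and 6 and 5 for STBB OVX. Against sham Il1r2 was at -3.28 in LTBB OVX and -3.38 in STBB OVX, Il17ra at -1.52 and -1.57, and Il6r at -1.45 and -1.32. Among the rises, Il17b was at 1.65 and 2.17, Il18 at 1.36 and 1.14, and Lifr at 0.79 and 0.92.

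Genes that passed in only some of these comparisons had small changes. Il12a, at 0.36, did not pass in LTBB OVX (adjusted p = 0.0794) and was at 0.68 in STBB OVX (adjusted p = 0.00335). Il17f fell in STBB OVX (-0.21, adjusted p = 0.0188), and Il10 rose there (0.24, adjusted p = 0.0246). With the pool number as a block over all 12 arrays, a pairing that the labels do not state, 3 more genes passed for LTBB OVX against sham. In limma these were Il12a at 0.36 (adjusted p = 0.016), Il15 at 0.26 (adjusted p = 0.0483) and Il22ra2 at -0.25 (adjusted p = 0.0458). The calls for STBB OVX against sham were the same 35 genes with and without the block. Whether Il12a, Il17f and Il10 differ between the OVX groups is the subject of the direct comparisons.

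The diets were compared directly among ovariectomized rats to ask whether BB altered the cytokine genes after surgery. In limma none of the 57 genes passed when either BB group was compared with OVX or when STBB OVX was compared with LTBB OVX, and the share of all genes called was 0% in each. The smallest adjusted p among the 57 was 1 in each comparison. At an unadjusted p under 0.05 there were 3 genes (5.26%) for LTBB OVX against OVX, beside 2.31% of all genes, 3 (5.26%) for STBB OVX against OVX, beside 2.89%, and 2 (3.51%) for STBB OVX against LTBB OVX, beside 3.40%.

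Intervals show how large a diet effect could be. Between LTBB OVX and OVX the log2 differences ran from -0.34 (Il17b) to 0.24 (Il36b), and the 95% intervals of 53 of the 57 genes lay within ±0.5 and those of all 57 within ±1. Between STBB OVX and OVX they ran from -0.27 (Il3ra) to 0.20 (Il22ra2), with 55 intervals within ±0.5 and 57 within ±1. For the bone-resorbing cytokines the intervals of LTBB OVX minus OVX were -0.41 to 0.21 for Il1b, -0.073 to 0.37 for Il6 and -0.15 to 0.13 for Tnf. Those of STBB OVX minus OVX were -0.42 to 0.19 for Il1b, -0.21 to 0.23 for Il6 and -0.23 to 0.050 for Tnf. A p that misses the threshold does not show that the groups were alike, and these intervals are the bounds that 3 pools per group allow.

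For LTBB OVX against OVX the genes under that unadjusted limit were Il17b (log2 difference -0.34), Il3ra (-0.29) and Il17re (-0.20). For STBB OVX against OVX they were Il17f (-0.22), Il18bp (-0.24) and Il3ra (-0.27). Each had an adjusted p of 1 in limma. The largest difference between the BB groups was that of Il17b, higher in STBB OVX than in LTBB OVX by 0.52 (95% interval 0.23 to 0.81, unadjusted p = 0.0022 and adjusted p = 1 in limma). Its 3 STBB OVX pools, at 0.55, 0.29 and 0.33, all lay above the 3 LTBB OVX pools, at -0.28, -0.025 and -0.081, while the OVX pools, at 0.41, 0.025 and 0.21, lay above the LTBB OVX pools and overlapped with the STBB OVX pools.

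Markers of other cells differed between these groups as well, although none passed in limma. Skeletal muscle markers were higher in STBB OVX than in LTBB OVX in 10 of 10 genes, with a median log2 difference of 1.41 and 8 genes at an unadjusted p under 0.05. Their mean lay between -0.23 and 0.54 in STBB OVX and between -2.78 and 0.61 in LTBB OVX, so the pools overlapped. In only 1 of the 10 genes did the pools of these groups lie apart. Against OVX the muscle markers were higher in STBB OVX in 10 of 10 genes, with a median of 2.10 and 8 such genes. Mast cell markers were higher in STBB OVX than in LTBB OVX in 7 of 7 genes, with a median of 0.50 and 6 such genes. They were lower in LTBB OVX than in OVX in 7 of 7, with a median of -0.45 and 4 such genes. The mean of the cartilage markers lay between 0.18 and 0.59 in STBB OVX and between -0.039 and 0.085 in LTBB OVX. Their part in the values of Il17b was not tested.

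**Figure D5:**
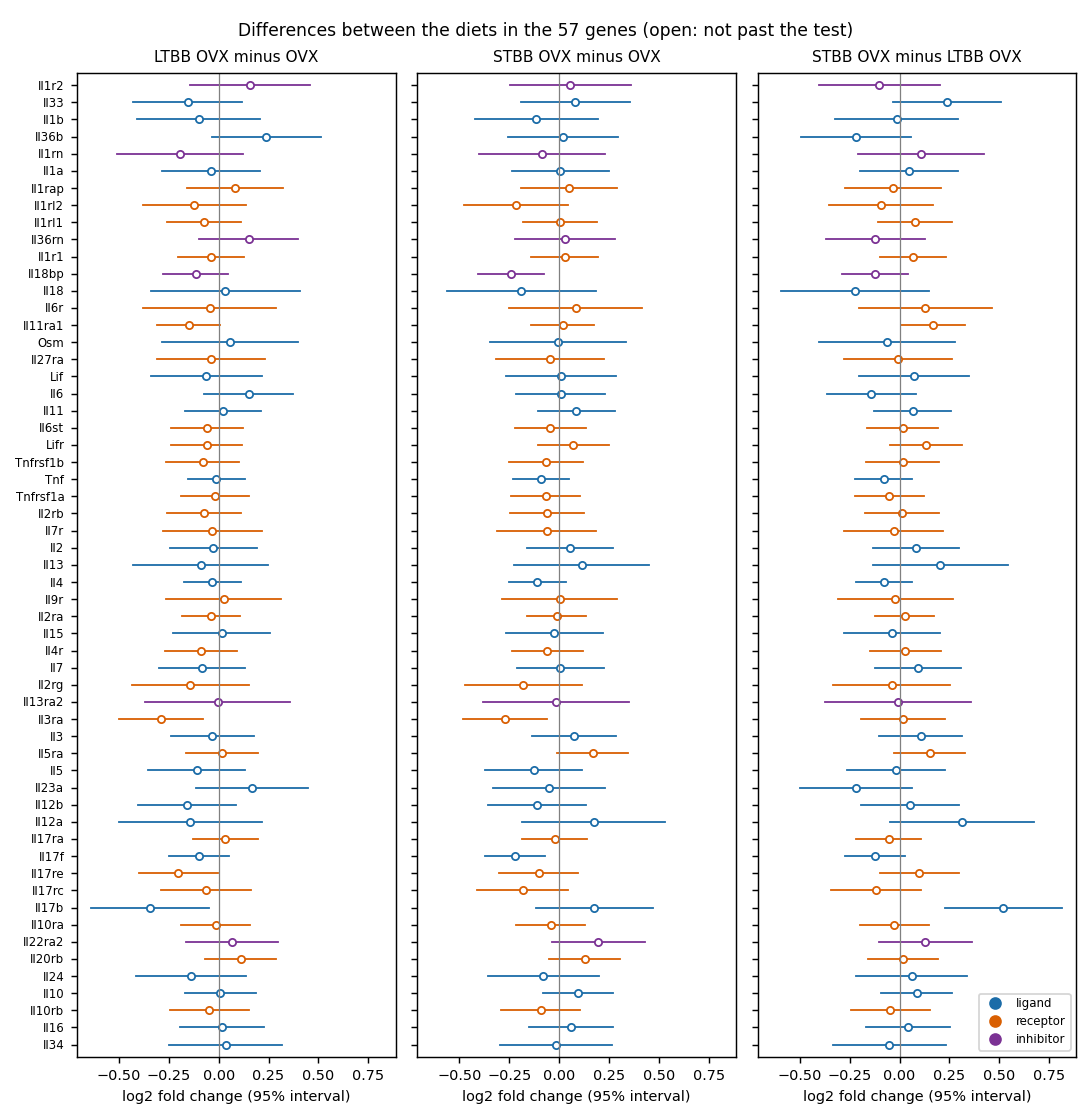
Log2 differences (horizontal axis, point) with 95% intervals (line) of the 57 genes between LTBB OVX and OVX, STBB OVX and OVX, and STBB OVX and LTBB OVX, coloured by role. All points are open, as no gene passed the test, and Il17b in the right panel, at 0.52, lies furthest from 0.

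Genes that carry cytokine signals inside the cell were counted from 6 lists, of which 80 of 91 genes were measured. Of these 32 rose, 20 fell and 28 did not pass (65% called, beside 58.9% of all genes, with 30.3% higher and 28.6% lower), with a median log2 fold change of 0.099, beside 0.0047 over all genes. With quantile normalization 11 of the 80 were called in place of 52. None passed between the diets in limma.

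Of 19 feedback inhibitors of cytokine signalling measured, 11 rose, 4 fell and 4 did not pass. That is 78.9% called, beside 58.9% of all genes, with a median log2 fold change of 0.27. Pias3, which restrains STAT3, rose by 1.06 (adjusted p = 1.04e-08), and Socs2 and Socs3, suppressors of JAK signalling, by 0.62 and 0.53. Bcl3, an inhibitor-like partner of NF-kB, rose by 0.61 and Tnfaip3, the gene of the NF-kB restraint A20, by 0.57. The list did not move in 1 direction only: 4 genes, not named here, fell, and the lowest value among the 19 was -0.41. Of 10 JAK and STAT genes 3 rose, 3 fell and 4 did not pass (60% called, near the share of all genes). Stat6 was at 0.73, Jak1 at 0.69 and Stat3 at 0.37, against Stat5a at -0.57, Stat5b at -0.55 and Stat4 at -0.25.

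Adaptors and kinases of the IL-1 receptor and Toll-like receptors had 4 of 16 genes higher and 8 lower. That is 75% called, beside 58.9% of all genes, with a median log2 fold change of -0.23. Tab3, a subunit of the TAK1 kinase complex, fell by 1.94 (adjusted p = 2.1e-09), and its relative Tab2 by 0.63. Ecsit fell by 0.67, and Myd88, the adaptor of these receptors, by 0.62, whereas Peli2, a ubiquitin ligase, rose by 0.79. Of 16 TNF and IL-17 receptor adaptors 6 rose, 3 fell and 7 did not pass (56.2% called, near the share of all genes). Traf5 was at 0.94 and Tradd, which binds Tnfrsf1a, at 0.50, against Cflar, an inhibitor of caspase-8, at -0.45.

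Of 11 NF-kB genes 4 rose, 2 fell and 5 did not pass (54.5% called, beside 58.9% of all genes). Nfkb2, a subunit of the noncanonical pathway, was at 0.71 and Relb, its partner, at 0.42, while Chuk, the kinase IKK alpha, was at -0.69 and Nfkbib, an NF-kB inhibitor, at -0.45. Of 8 genes listed for the inflammasome and interleukin-1 processing, 4 rose, none fell and 4 did not pass. The called share of 50% is below that of all genes, so the count is no result about this list. Casp12 rose by 1.56 (adjusted p = 8.8e-09) and Casp4 by 1.55 (adjusted p = 2.21e-07). Gsdmd, the pore-forming gasdermin D, rose by 0.71 and Casp1, the protease that matures IL-1 beta and IL-18, by 0.45. Inflammasome means lay between -0.58 and -0.41 in sham and between -0.022 and 0.052 in OVX, without overlap. This is not particular to the list. The means of the feedback inhibitors, the IL-1 receptor adaptors and the TNF and IL-17 receptor adaptors did not overlap between sham and OVX either. Those of the JAK and STAT genes and of the NF-kB genes overlapped.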

How the data were processed

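RNA from rat long bone was hybridized to Affymetrix rat genome arrays, 12 arrays in 4 groups assigned through the sample labels. The authors deposited log2 values, made per the methods by robust multiarray analysis, with a floor on the smallest measurements and with normalization per chip and per gene in GeneSpring. GCOS and RMA are named, without versions, in the submitters' processing notes. Because the values are centred per probe set, signal over background could not be read and no filter on dim probe sets was set.

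Of 31099 probe sets 57 controls were left out. GEO's platform annotation gave 1 symbol for 20826 of the 31042 tested, several for 436 and none for 9780, and 20758 symbols were looked up by gene ID among RefSeq genes of GRCr8, none of which changed. Genes were named from probe sets with a single symbol, and a gene's value is the mean over them, for 14217 genes in all (4525 had more than 1 probe set).

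Group means were fitted over all 12 arrays with limma 3.58.1 in R 4.3.3, with moderated variances, Benjamini-Hochberg adjustment over all genes at 0.05 and intervals at 95%. Precision is limited by the number of arrays, whose residual SD was 0.19 for sham, 0.133 for OVX, 0.149 for LTBB OVX and 0.122 for STBB OVX.

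The genes, lists, pairs and tests were chosen with earlier results of these data known. Values in every array were given for the cytokines that textbooks link to bone loss with their receptors, and for the 10 largest rises and 10 largest falls that passed without overlap of pools. Other genes of the rule are named with their fold change in their family. From each signalling list a few genes are named, not always in both directions. The marker lists covered T and NK cells, B cells, neutrophils, macrophages, mast cells, erythroid cells, osteoblasts, osteoclasts, cartilage, skeletal muscle, adipocytes and endothelium. Alternatives were another scaling of the arrays, array weights, robust variances, fits of 2 groups, the pool number as a block, a fold of at least 1.5, 1 probe set per gene, and each array left out in turn. Deviations of same-numbered pools from their group means correlated between 0.11 and 0.232 for sham with LTBB OVX. For sham with STBB OVX they correlated between 0.104 and 0.166, and for the other pairs of groups between -0.376 and 0.0864. The labels state no pairing and the main fit had no block, so all counts are unpaired except where the block is named. Promoters came from RefSeq's table for GRCr8. Plots used matplotlib 3.10.9 (Python 3.11.15).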

Additional observations from a re-analysis of the deposited data

How the results depend on the processing

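Of the log2 fold changes of the 57 genes between OVX and sham, recomputed under all alternatives, 1056 kept their direction and their side of the threshold, 53 no longer passed, 4 newly passed and 27 changed sign. Quantile normalizing the arrays again had the largest effect on counts, and the cause was not tested: 10 genes were higher and 7 lower in OVX than in sham, 3 and 6 in LTBB OVX, and 6 and 5 in STBB OVX, with 11 signalling genes and 43 marker genes called in place of 52 and 70, and 3010 of all genes in place of 8367. Centring each array on its median instead left 8357 of all genes called between OVX and sham. Requiring a fold of at least 1.5 left 11 genes higher and 12 lower in OVX than in sham, in place of 16 and 18. That rule also left 10 higher in STBB OVX than in sham, and 16 signalling genes. Of the genes that passed, Il3ra alone changed sign, to 0.083 with quantile normalization, and the cause was not tested. The other changes of sign were in genes that did not pass. Quantile normalization put Il6 at -0.082, Lif at -0.010, Il7r at 0.022, Il13 at 0.033, Il1rl2 at 0.069 and Il9r at -0.0044, array weights put Lif at -0.027, Il13 at 0.037, Il17f at -0.0081 and Il24 at -0.015, and 1 probe set per gene put Il7r at 0.21, Il1rap at 0.14, Il1rl1 at 0.21 and Tnf at 0.087. With single arrays left out Il6 ranged from -0.025 to 0.14, Lif from -0.11 to 0.12, Il1rl1 from -0.16 to 0.0075, Il13 from -0.21 to 0.088, Il17f from -0.020 to 0.036, Il1rl2 from -0.25 to 0.018, Il24 from -0.13 to 0.16, Il36rn from -0.15 to 0.080 and Il9r from -0.051 to 0.22. With single arrays left out 15 to 16 genes were higher and 16 to 18 lower in OVX than in sham, and none passed between the diets. With the pool number as a replicate block over all 12 arrays, 16 genes were higher and 17 lower in LTBB OVX than in sham. In STBB OVX these counts were 16 and 19. For OVX against sham same-numbered pools correlated between -0.187 and -0.0456. There 15 genes were higher and 18 lower with that block, the difference being Il12b (adjusted p = 0.0544 in limma).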
